A study of Mus musculus with 3 samples.

Results

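The p53 targets Cdkn1a, Mdm2, Ccng1, Btg2, Bax, Bbc3 and Pmaip1 and the BCL2 family genes Bax, Bbc3, Pmaip1, Bcl2l11, Mcl1 and Bcl2l1 were examined in transfected hepatoma cells. They were chosen by name, and every probe whose transcript accession belonged to one of them was taken. This gave 21 probes for 10 genes, out of 56605 probes and 22908 named genes on the array. Hepa1c1c7, a mouse hepatoma line, received an empty vector, an Mst1r vector or a Slpi vector, and was cultured for a day before RNA was prepared. Mst1r encodes a receptor tyrosine kinase and Slpi a secreted protease inhibitor. The vectors carried their coding sequences, and the control plasmid was pCMV6-Kan/Neo. Each of the 3 groups was 1 array of 1 transfected culture, so the groups could not be tested against each other and the differences lack a replicate check.

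p53 is a transcription factor that is kept low by Mdm2, a ubiquitin ligase and itself a p53 target. When p53 is stabilised, for example by DNA damage, it raises genes that halt the cell cycle, such as Cdkn1a, and genes that start apoptosis, such as Bax, Bbc3 and Pmaip1. In the BCL2 family, Bax permeabilises the outer mitochondrial membrane, Mcl1 and Bcl2l1 hold it back, and the BH3-only proteins Bbc3 (PUMA), Pmaip1 (NOXA) and Bcl2l11 (BIM) neutralise the protective members. Hepatocytes depend on Mcl1 and Bcl2l1 for survival.

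The transfected genes, which check the labels, were not higher beyond the spot error on their own arrays. The only Mst1r probe (NM_009074) read 4.15, 4.08 and 3.7 on the empty, Mst1r and Slpi vector arrays, under the threshold for a spot well above background each time. The brighter Slpi probe (NM_011414) read 6459, 3843 and 6680 in the same order, and Slpi vector minus empty vector was 0.13 ± 0.14 in log2. By real-time PCR, the authors report overexpression of Mst1r in transfected Hepa1c1c7 cells, which does not tell which array is which. The probes' places in the transcripts are not given in the sources used here, so a probe outside the coding sequence would not have seen the vector. Mst1r vector and Slpi vector therefore mean the arrays labelled so, and the directions given rest on those labels. Of 9 hepatocyte markers, 4 were well above background on all arrays, among them Alb and Afp, whereas Hnf4a and Apob were on none. Of 5 fibroblast markers, 4 were well above background on all arrays, and of 3 endothelial markers 1, Pecam1, at 24.1 to 35.9. Of 4 leukocyte markers, Cd68 (531, 378 and 482) and Cd3e (520, 521 and 576) were well above background on all arrays and Ptprc and Adgre1 on none. The summed unscaled signal was 75730, 60978 and 73675 for the hepatocyte markers and 47874, 34344 and 46341 for the fibroblast markers (empty, Mst1r, Slpi vector). Their part in the member values was not tested. In upper rows of the arrays, numbered 1 to 128, some control spots without target were bright, and 7 of the 21 member probes lay there.

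p53 binds pairs of a 10-base half-site, and promoter sequence of the members is shown to let the reader see which of them carry one near a listed start. RefSeq promoters (GRCm38.p6, 250 bases before to 50 after each start) were listed for 9 of the 10 members, in 15 entries, all but Pmaip1. The half-site consensus, which reads alike on both strands, matched 4 of these 15 promoters, against 8.36% of all 32851 promoters. The matches, in capitals with 30 bases on either side, were the following, 5′ to 3′ on the strand of the gene.
Bax, chr7:45467060-45467129, minus strand: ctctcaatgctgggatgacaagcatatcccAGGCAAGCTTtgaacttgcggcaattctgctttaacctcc
Ccng1, chr11:40755432-40755501, minus strand: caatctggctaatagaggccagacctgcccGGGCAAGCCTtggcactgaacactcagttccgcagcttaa
Cdkn1a, chr17:29090876-29090967, plus strand: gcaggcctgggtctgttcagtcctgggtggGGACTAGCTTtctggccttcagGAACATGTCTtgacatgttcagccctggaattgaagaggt
Mdm2, chr10:117710905-117710974, minus strand: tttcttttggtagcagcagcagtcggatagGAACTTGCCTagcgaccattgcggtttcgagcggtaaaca

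The capitals began 201 bases before the start in Bax, 186 in Mdm2, 185 in Ccng1, and 73 and 51 in Cdkn1a. Cdkn1a has 2 listed starts 2790 bases apart, and both matches lay at the upstream start. The 10 bases directly after the second match depart from the consensus only at the first of them, so they are in lower case. The well known p53 element of Mdm2 lies in the first intron, outside such a window. The cAMP response element TGACGTCA, which reads alike on both strands, was found in Btg2 alone among the members and in 1.79% of all promoters, and is shown because Btg2 had the largest difference with Mst1r vector.
Btg2, chr1:134079284-134079351, minus strand: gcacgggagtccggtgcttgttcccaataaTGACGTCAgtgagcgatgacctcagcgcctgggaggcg

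The AP-1 motif TGANTCA, searched on both strands, was in 0 member promoters and in 7.81% of all promoters. The windows of Btg2, Bbc3, Mcl1, Bcl2l1 and Bcl2l11 held no match to the half-site consensus. These are letter matches in a window, not measured binding sites.

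All 10 members were readily detected, and on its brightest probe none differed by as much as 1.5-fold between a vector and the empty vector. The second Btg2 probe differed by 1.53-fold with Mst1r vector. Well above background on every array were 20 of the 21 probes, against 24870 of all 56605 probes. The brightest probe of each gene read between 373 and 24762. These signals are intensities on a linear scale before scaling between arrays, and probes differ in how brightly they read, so levels are compared within a probe only. Differences are log2 ratios of signals scaled to the 75th percentile of each array, and the error after ± is the SD that repeated spots of that brightness give for such a difference, which covers no variation between cultures. Values and folds are those of the brightest probe of a gene unless another is named. In bulk RNA, fewer cells of a type and less RNA per cell cannot be told apart.

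With Mst1r vector, 0 of the 10 members were at least 2-fold from empty vector, where 5.39% of 12047 named genes over a signal of 50 were, and 2.38% of those well above background on all arrays. At 1.5-fold the count was again 0, against 8.89%. Differences ran from -0.17 to 0.50, 5 above and 5 below zero (38.8% and 61.2% of named genes), and the largest fold was 1.42. The members over 2 spot SD were Btg2, Bbc3 and Mdm2, all higher, which is 3 of 10 against 8.23% of named genes and 6.95% of those well above background. No member was lower by that much, against 10.5% and 9.21%. Both counts depended on the scaling. Without scaling, 0 members were higher by over 2 spot SD (4.52% of named genes) and 4 lower, Ccng1, Bax, Bcl2l11 and Bcl2l1 (45.8%). There 3 members were above zero and 7 below (12.1% and 87.9% of named genes). On the spike-in controls, Btg2, Bbc3 and Mdm2 were higher by that much (6.0%) and Ccng1 and Bcl2l1 lower (22.1%). With median scaling Cdkn1a joined these 3 as higher, and 0 members were lower (9.43% and 8.46% of named genes). The percentile over detected probes gave the same members (9.33% and 8.58%). With Slpi vector, 0 of 10 were at least 2-fold apart, against 3.82% of 11963 named genes and 0.94% of those well above background, and 0 at 1.5-fold, against 4.75%. These differences ran from -0.19 to 0.17, again 5 on each side of zero (52.3% of named genes above, 47.7% below), and Mdm2 alone was higher by over 2 spot SD (3.49% of named genes, 2.26% of those well above background). None was lower by over 2 spot SD (3.38% and 1.81%). Without scaling 2 members were above zero and 8 below (73.0% of named genes below), and Ccng1 and Pmaip1 were lower by over 2 spot SD (6.29%). On the spike-in controls all 10 were below (94.4% of named genes), 5 of them by over 2 spot SD (31.5%). Mdm2 was not over 2 spot SD without scaling, on the spike-in controls or with the percentile over detected probes. The median of the members was 0.066 with Mst1r vector, though -0.16 without scaling and -0.036 on the spike-in controls, and 0.0027 with Slpi vector, where all named genes had -0.05 and 0.0071. Both comparisons share the empty vector array.

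**Figure D1:**
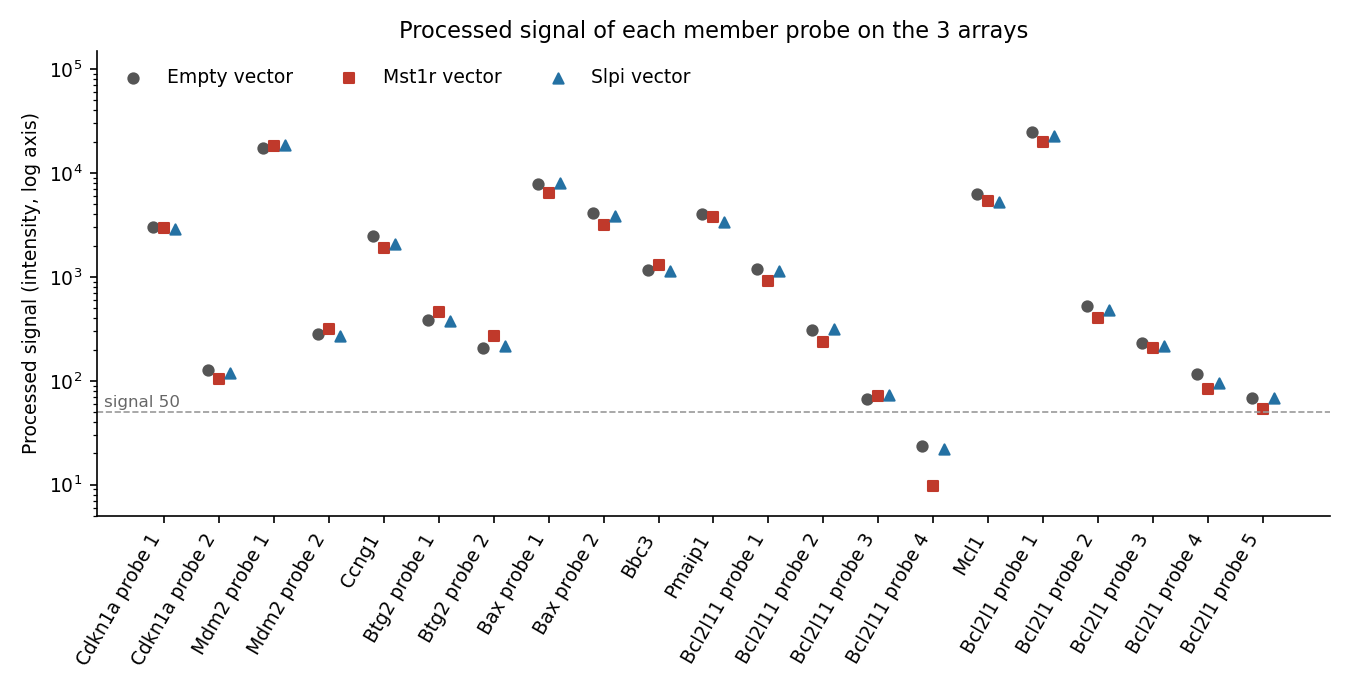
Processed signal (intensity, log axis) of each of the 21 member probes on the empty vector (circle), Mst1r vector (square) and Slpi vector (triangle) array, with probes of a gene numbered from the brightest. The 3 readings of a probe lie close together except for the faintest Bcl2l11 probe, at 23.6, 9.72 (not well above background) and 22.3, which is also the only one under the dashed line at 50 on all arrays.

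Among the genes that restrain the cell cycle or p53 itself, Btg2 and Mdm2 had the highest scaled differences from empty vector with Mst1r vector. Ccng1 had the lowest difference with both vectors. Cdkn1a, which encodes the cyclin-dependent kinase inhibitor p21 (NM_007669), read 2990, 2980 and 2873 on the empty, Mst1r and Slpi vector arrays, the order used for all signals that follow. The 3 readings were nearly level before scaling. Mst1r vector minus empty vector was 0.23 ± 0.12 after scaling and -0.0048 without it, so the sign for Cdkn1a came from the scaling. Slpi vector minus empty vector was 0.021 ± 0.12. The second Cdkn1a probe (NM_001111099) read 127, 104 and 120, and its differences of -0.058 ± 0.24 and -0.0022 ± 0.24 were within the spot error.

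Mdm2 (NM_001288586), the ligase that targets p53 for degradation, read 17389, 18319 and 18505. Both vector arrays were above the empty vector array, before scaling as well. The difference was 0.31 ± 0.08 with Mst1r vector and 0.17 ± 0.08 with Slpi vector. This probe lies in row 14, among the upper rows. The second Mdm2 probe, in row 215, read 283, 316 and 272. It differed by 0.39 ± 0.16 with Mst1r vector and by 0.024 ± 0.16 with Slpi vector, so the probes had the same sign with Mst1r vector and only the brighter one was over 2 spot SD with Slpi vector.

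Ccng1 (NM_009831) encodes cyclin G1, which brings a phosphatase to Mdm2. It read 2483, 1888 and 2060, highest with empty vector. The difference was -0.17 ± 0.12 with Mst1r vector and -0.19 ± 0.12 with Slpi vector. Ccng1 was thus below zero with both, by between 1 and 2 spot SD each time.

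Btg2 (NM_007570), an antiproliferative protein that promotes removal of mRNA tails, read 383, 463 and 373. The Mst1r vector array was the highest and the other arrays were close together. Its difference from empty vector was 0.50 ± 0.16 with Mst1r vector, against 0.037 ± 0.16 with Slpi vector. The second Btg2 probe read 205, 268 and 216, again highest with Mst1r vector, and differed by 0.61 ± 0.21 and 0.15 ± 0.24. Without scaling the brighter probe still differed by 0.27 with Mst1r vector. Neither probe lay in the upper rows.

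Among the genes that promote apoptosis, the BH3-only gene Bbc3 was higher with Mst1r vector, while the brightest probes of the effector Bax and the BH3-only gene Bcl2l11 were not. Bbc3 (NM_133234) read 1175, 1308 and 1151. It was highest with Mst1r vector on the unscaled signal too. The difference was 0.38 ± 0.12 with Mst1r vector, or 0.15 without scaling, against 0.049 ± 0.12 with Slpi vector. Bbc3 has a single probe, so no second reading stands beside it.

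Bax (NM_007527) read 7782, 6376 and 7982 on the brighter probe and 4078, 3156 and 3851 on the other. The Mst1r vector array was the lowest on both before scaling. After scaling, the differences were -0.057 ± 0.14 and -0.14 ± 0.12 with Mst1r vector. With Slpi vector they were 0.11 ± 0.14 and -0.0043 ± 0.12. Both Bax probes lie in the upper rows, in rows 16 and 98.

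Pmaip1 (NM_021451), whose protein binds Mcl1, read 4042, 3780 and 3382. The Slpi vector array was the lowest. The difference from empty vector was 0.13 ± 0.12 with Mst1r vector and -0.18 ± 0.12 with Slpi vector, on opposite sides of zero. The sign with Mst1r vector turned without scaling, to -0.096.

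Bcl2l11, a BH3-only gene known for induction on loss of growth factor signals, had 4 probes. The brightest (NM_207680) read 1204, 918 and 1129, lowest with Mst1r vector, and differed by -0.16 ± 0.14 and -0.015 ± 0.12. The second read 305, 235 and 313 and differed by -0.14 ± 0.21 and 0.12 ± 0.16. The third (NM_001284410, row 1) read 67.5, 70.8 and 73, with differences of 0.30 ± 0.24 and 0.19 ± 0.24. Probes of Bcl2l11 therefore disagreed in sign with both vectors. The faintest, in row 9, was well above background with empty and Slpi vector only, and with Mst1r vector it lay under the empty vector reading by at least 1.07-fold.

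The members that protect the mitochondrial membrane had small differences with Mst1r vector, the larger being that of Bcl2l1. Mcl1 (NM_008562) read 6248, 5321 and 5239, highest with empty vector. Its difference was -0.0017 ± 0.14 with Mst1r vector and -0.18 ± 0.14 with Slpi vector. Bcl2l1 (NM_001289716), which encodes BCL-XL, read 24762, 19809 and 22718, and differed by -0.092 ± 0.08 and -0.046 ± 0.08. The other 4 Bcl2l1 probes read between 53.6 and 524. Over all 5 probes the difference ran from -0.24 to 0.075 with Mst1r vector, 4 below zero, and from -0.20 to 0.06 with Slpi vector, 4 below zero. None of these was over 2 spot SD, but with Mst1r vector the brightest probe was, at -0.32 without scaling and -0.19 on the spike-in controls, as it was with Slpi vector on the spike-in controls (-0.28).

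**Figure D2:**
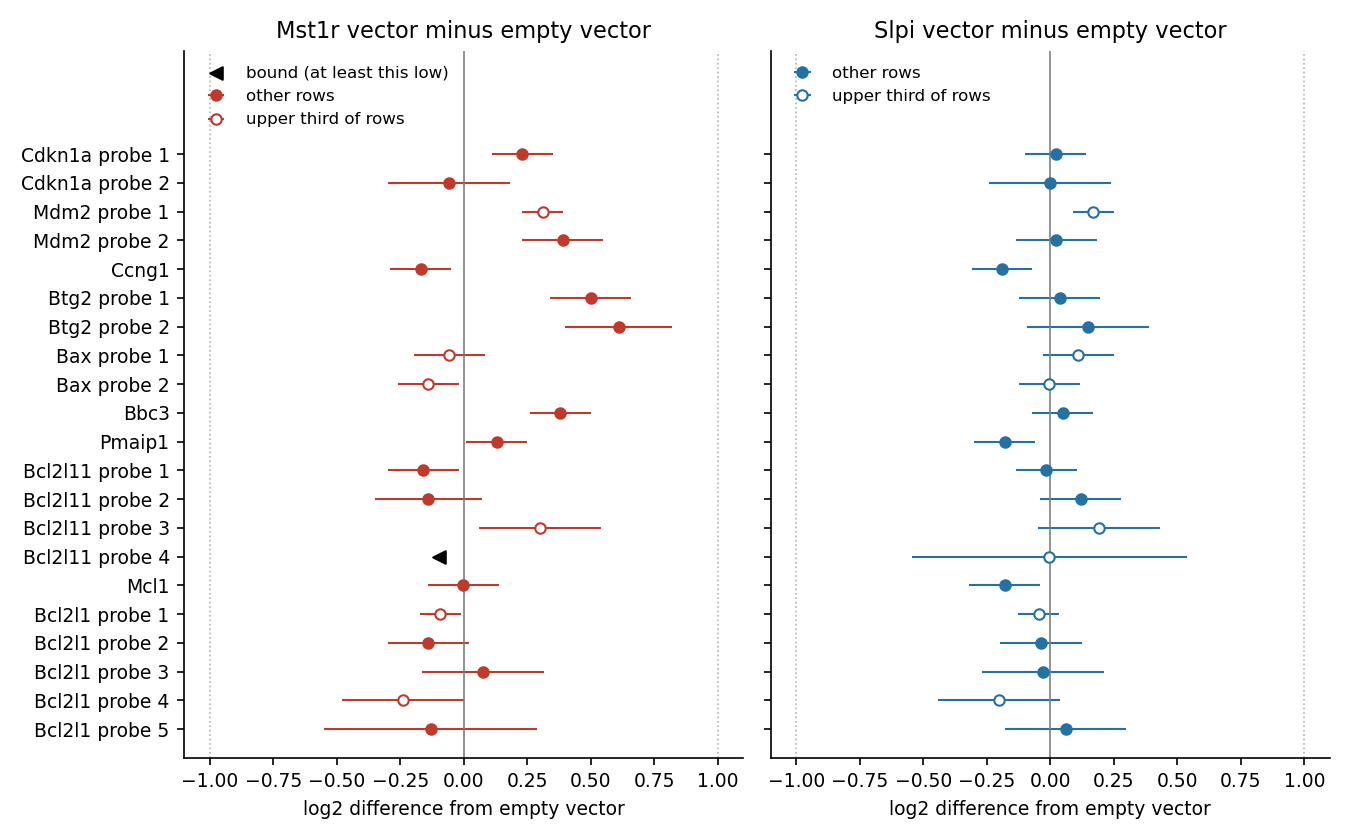
Log2 difference from empty vector of each member probe (x axis) with Mst1r vector (left) and Slpi vector (right), where bars are 1 spot SD, open circles are probes in the upper rows and dotted lines mark 2-fold. The probes of Btg2, Mdm2 and Bbc3 lie right of zero by over 2 SD with Mst1r vector, from 0.31 to 0.61, and the black triangle is the faintest Bcl2l11 probe, not well above background with Mst1r vector, drawn at its bound of 1.07-fold lower.

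Set directly against each other, the arrays of the 2 vectors differed most for Btg2, Bbc3 and Pmaip1 after percentile scaling. Without scaling the largest differences were those of Bax (-0.32), Btg2 (0.31) and Bcl2l11 (-0.30). Mst1r vector minus Slpi vector was 0.47 ± 0.16 for Btg2, with the second probe at 0.46. It was 0.34 ± 0.12 for Bbc3 and 0.31 ± 0.12 for Pmaip1. The second Mdm2 probe, at 0.37 ± 0.16, was above these last values. On brightest probes these were the 3 of 10 members over 2 spot SD, all higher with Mst1r vector, against 8.35% of named genes. Lower by over 2 spot SD were 0 members, against 12.4%, whereas without scaling 0 members were higher and Bax, Bcl2l11 and Bcl2l1 lower by that much (5.19% and 32.7% of named genes). On the spike-in controls 6 were higher and 0 lower (17.0% and 5.39%). With the percentile over detected probes 5 were higher and 0 lower (9.94% and 9.53%), and with median scaling 1 and 2 (5.45% and 29.7%). As reported, Bax and Bcl2l11 had the lowest values, -0.17 and -0.15. Apart from Btg2 on the spike-in controls, no member was 1.5-fold apart between the vectors under any scaling run, against 8.82% of named genes, or 2-fold apart, against 4.93%. The Mst1r vector array is part of this comparison as well, so the values repeat in part those against empty vector.

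Where zero lies depends on how the arrays were scaled, whereas the order of the members within a comparison does not. For named genes well above background on all arrays, the median with Mst1r vector was -0.05 as reported, -0.28 without scaling and -0.15 on the spike-in controls. With Slpi vector it was 0.0075, moving to 0.17 with median scaling and -0.23 on the spike-in controls. Among 11661 such genes, Btg2 with Mst1r vector was at the 95.6th percentile, Bbc3 at 93.7, Mdm2 at 91.7, Cdkn1a at 88.8 and Pmaip1 at 82.1. Mcl1 and Bax lay near the middle, at 61.0 and 48.4. Bcl2l1 was at 40.6, Bcl2l11 at 27.2 and Ccng1 at 26.3. With Slpi vector, Mdm2 was at 90.3 and Bax at 82.2, and the lowest were Mcl1 at 9.35, Pmaip1 at 9.05 and Ccng1 at 7.98. Between these ranks lie small differences, and Mst1r vector minus Slpi vector was 0.17 ± 0.14 for Mcl1 and 0.14 ± 0.08 for Mdm2. Btg2, Bbc3 and Mdm2 kept their sign with Mst1r vector under all 9 alternatives, from 0.27 to 0.56, 0.15 to 0.42 and 0.075 to 0.39. Not all of these could move a value. Bbc3 has 1 probe of 1 spot, in row 353, so keeping marked spots, averaging probes or using the lower rows left it at 0.38. With Slpi vector, Mdm2 turned to -0.069 on the spike-in controls.

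**Figure D3:**
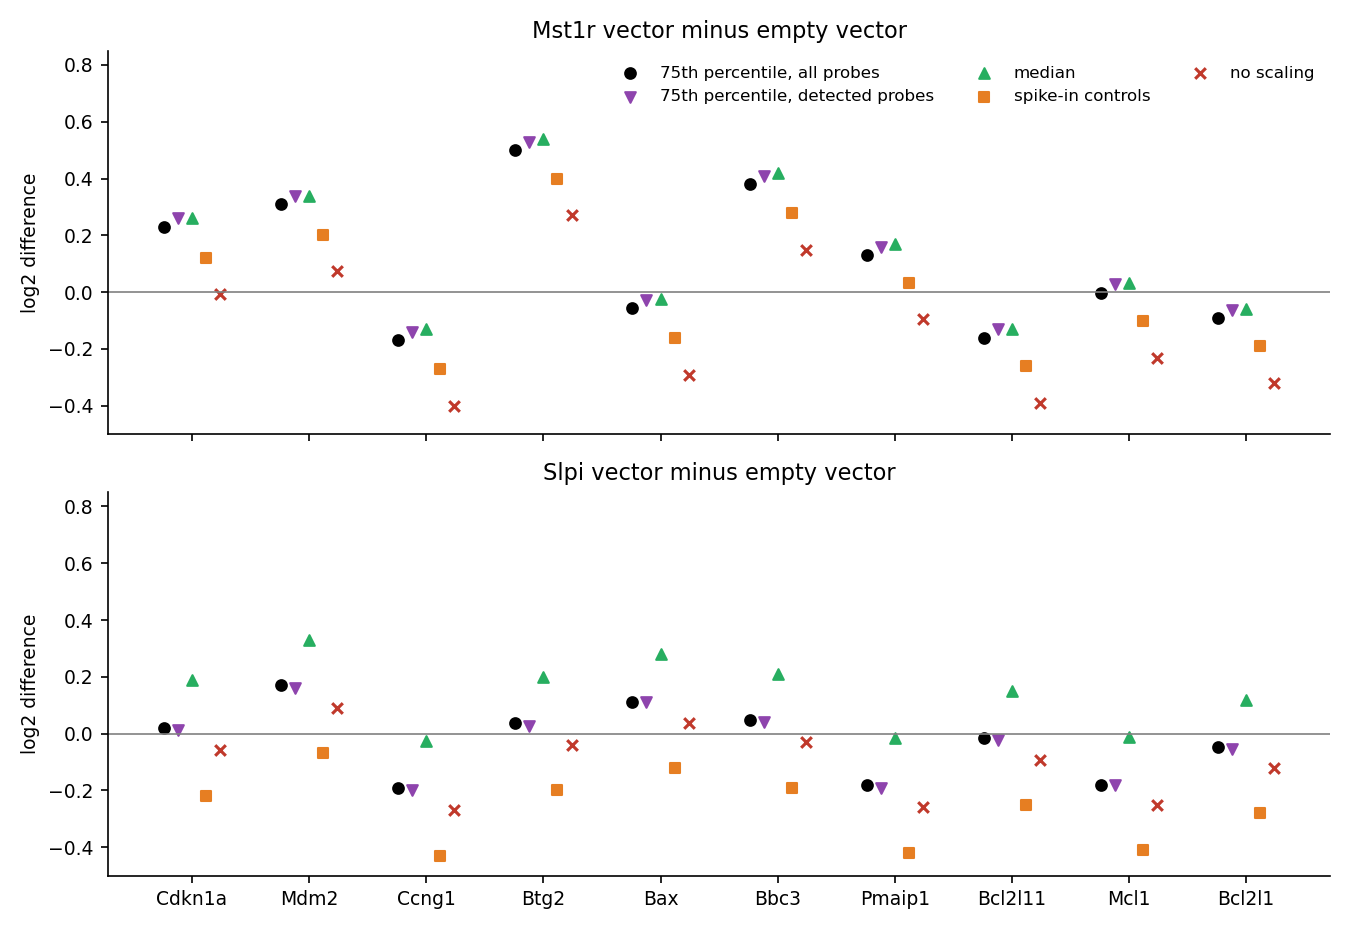
Log2 difference from empty vector of the brightest probe of each member under 5 scalings between arrays, with Mst1r vector (top) and Slpi vector (bottom). Each scaling shifts all members together, and Btg2, Mdm2 and Bbc3 lie above zero with Mst1r vector under every one, while with Slpi vector only Ccng1, Pmaip1 and Mcl1 have the same sign, below zero, under all 5.

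Other p53 targets were read from a list of 35 genes, 34 of them over a signal of 50. Their median was 0.013 with Mst1r vector and 0.036 with Slpi vector, against -0.05 and 0.0071 over all named genes, and both medians were below zero without scaling and on the spike-in controls, the first also with normexp and with the lower rows alone. With Slpi vector the median of every list, the members included, changed sign under at least 1 scaling. With Mst1r vector the medians of the 5 lists described next were below zero under all 9 alternatives. The median of all named genes well above background was below zero there as well under each scaling, from -0.28 to -0.018. Of the other p53 targets, 6 were higher and 1 lower by over 2 spot SD with Mst1r vector, against 8.23% and 10.5% of named genes. Only 1, Pidd1, was at least 2-fold apart, against 5.39%. Pidd1, a death domain adaptor, read 187, 456 and 266 on the brighter probe, which is 1.52 ± 0.21 with Mst1r vector and 0.58 ± 0.21 with Slpi vector. Its other probe read 250, 200 and 217, at -0.088 ± 0.24 and -0.12 ± 0.24, so the Pidd1 probes disagreed. Rap2b, a small GTPase, read 114, 168 and 163 (0.79 ± 0.24 and 0.59 ± 0.24) from a single probe in row 11. Tap1, a peptide transporter of antigen presentation, differed by 0.59 ± 0.12 with Mst1r vector, with 0.66 ± 0.21 on the second probe, and by 0.034 ± 0.12 and 0.31 ± 0.24 on these probes with Slpi vector. With Slpi vector 3 of the list were higher by over 2 spot SD and none lower, against 3.49% and 3.38%. Gadd45a, a growth arrest and DNA damage gene, had the largest difference there, reading 234, 247 and 352 (0.66 ± 0.21), from a probe in row 120.

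Trp53, the gene of p53 itself (NM_011640), read 2009, 1550 and 2200. It was lowest with Mst1r vector and differed by -0.14 ± 0.12 and 0.21 ± 0.12. Of 22 genes over a signal of 50 among p53 and its regulators, 7 were above and 15 below zero with Mst1r vector (median -0.086, 61.2% of named genes below), and 12 and 10 with Slpi vector (median 0.013, 47.7% below). Mdm4, the partner of Mdm2, read 84.4, 97.0 and 99.5 and differed by 0.43 ± 0.24 with Mst1r vector. All 4 Mdm4 probes were above zero there, up to 0.66, at signals between 60.7 and 110. With Slpi vector the brightest Mdm4 probe differed by 0.32 ± 0.24 and another by -0.058 ± 0.24. Atm, the kinase that signals double strand breaks, read 257, 158 and 246 (row 52), at -0.48 ± 0.21 with Mst1r vector and -0.37 ± 0.24 on its second probe. Prkdc, the catalytic subunit of the DNA-dependent protein kinase, read 199, 127 and 217 (-0.42 ± 0.24 with Mst1r vector). With Slpi vector the largest differences among the 22 genes were those of Trp53bp1, a repair scaffold, and of Chek1, a checkpoint kinase, both at -0.33. The second Chek1 probe differed by 0.31 ± 0.24, with the opposite sign.

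Of the other BCL2 family genes, 17 of 19 had a probe and 13 were over a signal of 50. With Mst1r vector 4 were above and 9 below zero (61.2% of named genes), median -0.077. With Slpi vector 5 were above and 8 below (47.7% of named genes), median -0.037, which turned to 0.13 with median scaling. The 1 gene of 13 at least 2-fold apart with each vector was Bcl2a1d, a protective member, against 5.39% and 3.82% of named genes. It read 53.8 with empty vector and 4.06 and 3.45 with the vectors, at least 2.44-fold and 3.08-fold lower. Its probe lies in row 79, among the upper rows, and was well above background with empty vector only. Bok, an effector related to Bax, read 1502, 919 and 1528 and differed by -0.48 ± 0.14 with Mst1r vector. Bid, which links caspase 8 to Bax, read 3867, 2734 and 3761 (-0.27 ± 0.12). Bcl2l15 read 279, 344 and 258 (0.53 ± 0.16). With Slpi vector, genes over a signal of 50 and well above background on all arrays were ranked. The largest difference among them was that of Bcl2l14, -0.26 ± 0.42, within the spot error. Bcl2l12 at 0.22 ± 0.16 and Bcl2l13 at 0.20 ± 0.12 followed.

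Of 19 genes of caspases and the apoptosome, 15 were below zero with Mst1r vector, median -0.11, and none was 1.5-fold apart, where 61.2% of named genes were below zero and 8.89% were 1.5-fold apart. Casp6, an executioner caspase, read 857, 549 and 806, at -0.41 ± 0.16. Endog, a mitochondrial nuclease, read 1000, 653 and 991, at -0.39 ± 0.16, and Birc2, an inhibitor of apoptosis, read 266, 183 and 232, at -0.31 ± 0.21. With Slpi vector 9 were above and 10 below zero (47.7% of named genes below), median -0.01. Apaf1, the core of the apoptosome, differed by -0.28 ± 0.24, the mitochondrial protein Aifm1 by 0.22 ± 0.14 and the nuclease Dffb by 0.20 ± 0.24.

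A further list held cell cycle genes that p21 can lower through the DREAM repressor complex. The part of Cdkn1a in their values was not tested. With Mst1r vector 17 of 20 were below zero, median -0.15, where 61.2% of named genes were below zero, and 5 were lower by over 2 spot SD (10.5% of named genes). Aurkb, Cdk1 and Mki67 had the largest differences, -0.34 each. Cdk1, the mitotic kinase, read 5037, 3393 and 4168. With Slpi vector 8 of 20 were below zero (47.7% of named genes), median 0.027. There Aurkb differed by -0.22 ± 0.12, Cdk1 by -0.20 ± 0.14 and Ccnb1 by 0.17 ± 0.14, and the other Ccnb1 probes by -0.086 and -0.099. Of 10 CDK inhibitors and G1 cyclins over a signal of 50, 8 were below zero with Mst1r vector (median -0.15, 61.2% of named genes) and 6 with Slpi vector (median -0.016, 47.7%). Ccne1, cyclin E1, read 6249, 4512 and 7015, at -0.24 ± 0.14 with Mst1r vector and 0.24 ± 0.14 with Slpi vector. Ccnd3 differed by -0.29 ± 0.14 and Cdk6 by -0.46 ± 0.42 with Mst1r vector. With Slpi vector Cdk2 differed by -0.20 ± 0.16 and Cdk6 by 0.12 ± 0.24.

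**Figure D4:**
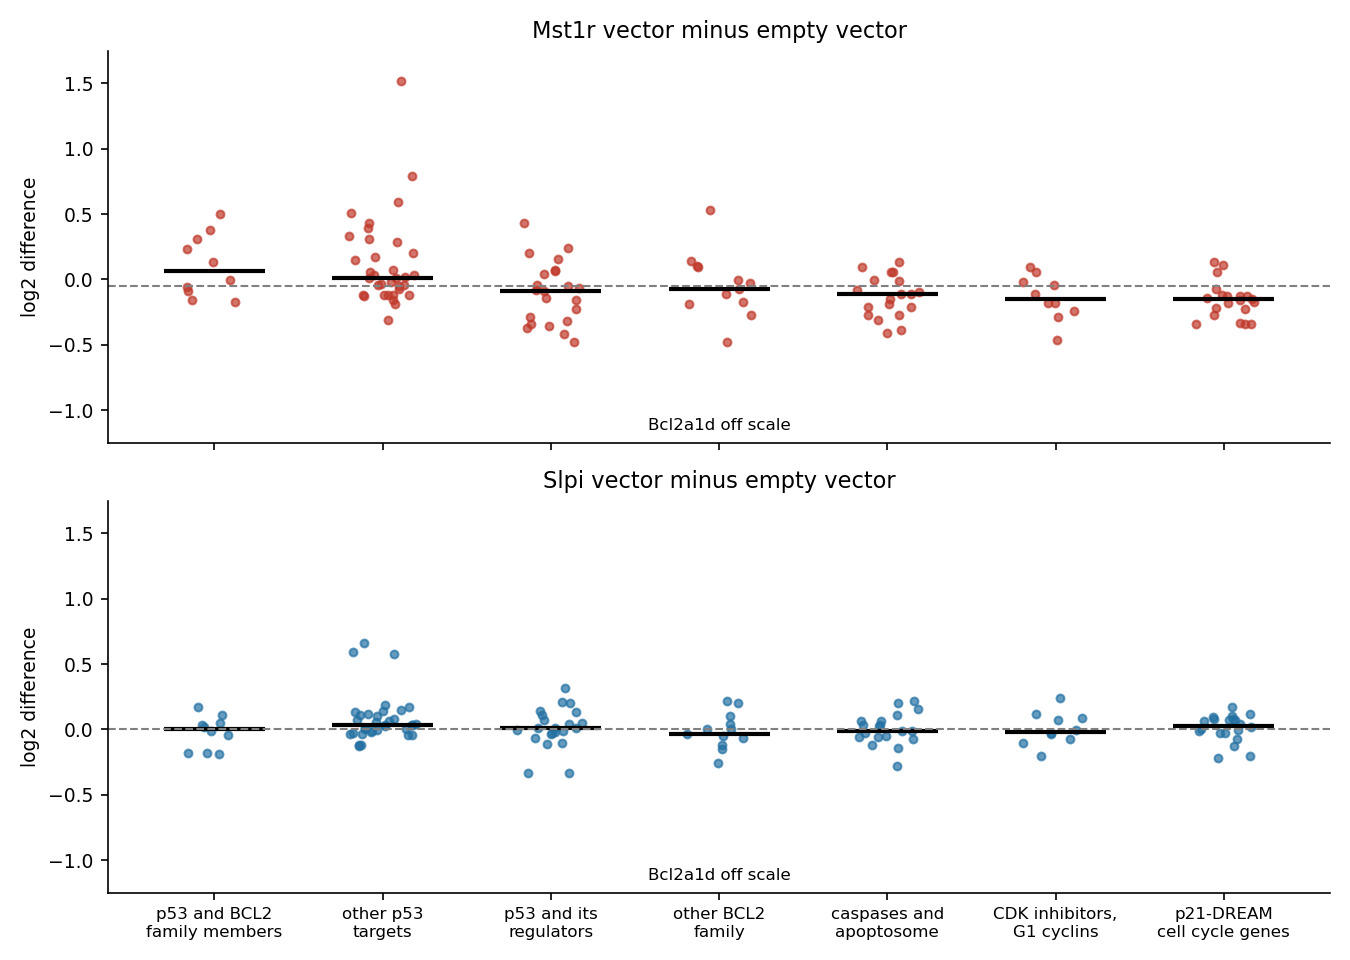
Log2 difference from empty vector of each gene over a signal of 50 in the members and 6 related lists, with Mst1r vector (top) and Slpi vector (bottom), where black bars are list medians and the dashed line is the median of all named genes. With Mst1r vector the members' median of 0.066 is the highest of the 7 (below zero without scaling or on the spike-in controls) and the medians of the 2 cell cycle lists, -0.15, are the lowest, and the point at 1.52 is Pidd1.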

How the data were processed

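RNA of Hepa1c1c7 cells transfected with empty, Mst1r or Slpi vector was hybridised to 1 one-colour Agilent SurePrint G3 Mouse array each. Groups were taken from the sample titles. The deposited files hold spot intensities (62976 spots per array), which the authors extracted with Feature Extraction (version 12.0.3.1 in the submitters' processing notes). Processed signals were background-subtracted and spatially detrended by the authors and were not scaled between arrays. Flags in the deposited files mark spots well above background and outlier spots, and no spot was saturated. The deposited series table gave the same intensities (within 0.01 in log2 for 99.75% of values).

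From these, log2 signals were averaged over spots, leaving out marked spots, and the 75th percentile of the 56605 non-control probes was subtracted per array, as in the methods. Probes were named through RefSeq accessions (32994 matched, GRCm38.p6, names only), and probes with other identifiers were not used. The probe with the highest mean signal stood for a gene. Counts took genes with a signal over 50 on the brighter array, the limit of the methods. With 1 array per group there was no test. Spot SDs came from probes printed at least 10 times, by signal level (0.694 in log2 below 3, 0.0569 above 14), and the number of arrays limits the precision. Few such probes lay between 8 and 12 in log2, where the brightest Btg2, Bbc3 and Cdkn1a probes read. The SD rests on 9 probe readings from 8 to 10 (0.111) and on 12 from 10 to 12 (0.084), each 1 probe on 1 array. The brightest Mdm2 probe read just above 14, where the SD is 0.0569, against 0.0976 from 12 to 14. Its difference with Slpi vector, 2.09 spot SD, rests on the smaller SD. Where an array was not well above background, its own signal or the lowest signal well above background, if that was higher, entered the fold as a bound. Percentile 75 was 268 with empty, 229 with Mst1r and 254 with Slpi vector.

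The members and the 6 other lists (131 entries, 2 without a probe) were chosen with earlier results of these data known. Genes named beside the members were, per list and vector, up to 3 with the largest difference among those well above background on all arrays and over 50, besides Trp53, Mst1r and Slpi. Bcl2a1d and the second probes were named after their values were seen. Alternatives changed scaling, background correction (normexp, limma 3.58.1 in R 4.3.3, offset 50), input table, marked spots, probe choice, rows, filter and fold. The scripts were tested on simulated data. Python 3.11.15, numpy 2.4.6 and pandas 2.3.3 were used.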

Additional observations from a re-analysis of the deposited data

Results flagged for a closer look

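Control spots without target were bright in upper rows of all 3 arrays. Of ERCC control spots whose probe median was under 15, the share with a processed signal over 50 in rows 1 to 128 was 2.68% with empty vector (25 of 934, 95% exact binomial interval 1.74 to 3.93), 4.01% with Mst1r vector (37 of 922, 2.84 to 5.49) and 2.82% with Slpi vector (26 of 922, 1.85 to 4.1). In the other rows it was 0 of 1754, 2 of 1731 and 1 of 1731. These intervals cover counting error only. The brightest such spots read 207, 289 and 481. The member probes in these rows are the brightest Mdm2 probe, both Bax probes, 2 of Bcl2l1 and the 2 faintest of Bcl2l11. The Mdm2 and Bax probes and the brighter Bcl2l1 probe read at least 3156, while the Bcl2l11 probes and the fainter Bcl2l1 probe read at most 117. The part of stray signal in these readings was not tested.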

How the results depend on the processing

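No member was 2-fold apart from empty vector under any alternative run. The members' median with Mst1r vector, 0.066 as reported, was -0.16 without scaling, and with Slpi vector 0.0027 became 0.17 with median scaling and -0.23 with spike-in scaling. Members over 2 spot SD with Mst1r vector were 3 higher and 0 lower as reported (8.23% and 10.5% of named genes). The counts were 0 and 4 without scaling (4.52% and 45.8%), and 4 and 0 with median scaling (9.43% and 8.46%). Each of these settings shifts all genes of an array alike. The medians otherwise lay within the spot SD of the reported values, although small values near zero changed sign. Of 178 recomputed values of single members, 142 moved by less than the spot SD and 36 by at least that. Some of the 142 could not move, as where a member has a single probe and the alternative changed the choice of probes. With Mst1r vector Cdkn1a and Pmaip1 were below zero without scaling and Mcl1 was above zero under 2 of the scalings. With Slpi vector Ccng1, Pmaip1 and Mcl1 had the same sign in all 9 alternatives, and the other 7 members did not. Bax had no probe in rows 129 to 384 and so no value there. Normexp was run on the median spot signal, as the files used here hold no mean signal. Leaving out a replicate was not run, since each group is 1 array, and dim probes have spot SDs of up to 0.8 per array in log2. No paired analysis was possible because each group held 1 array and the result comes from no test.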
